A study of Mus musculus with 9 samples.

Results

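The genes described here are 10 transcripts that neutrophils and monocytes carry, measured in RNA of naive CD4+ T cells: the receptors Csf3r, Cxcr2 and Il1r2, the secreted or granule proteins S100a8, S100a9, Lyz2 and Mmp9, the transcription factor Spi1 and the adaptors Fcer1g and Tyrobp. They form a list of names that was drawn up with earlier results of these data known, genes at 0 in untreated cells included, and all 10 were found among the 55487 genes of the deposited files. Poly(A) RNA came from spleen naive CD4+ T cells (TN cells) of WT mice of the C57BL6/J strain, in 9 libraries. The untreated group held 3 libraries, the anti-IL-1b group held 3 from mice that had received an antibody to the cytokine IL-1b over 10 days, and the MCC950 group held 3 from mice that had received MCC950 over 10 days. NLRP3, the inflammasome sensor upstream of IL-1b release, is the target of the inhibitor MCC950. The comparison group was untreated, so neither an isotype antibody nor a vehicle was part of it. Age, sex, the mouse of origin and the way the cells were isolated are not given in the labels, nor whether a library came from 1 mouse or from pooled mice. P-values below therefore measure the spread between libraries, which may be partly technical.

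Neutrophils and monocytes arise in the bone marrow under the transcription factor PU.1, the product of Spi1, and members of the C/EBP family. The cytokine G-CSF acts through the receptor of Csf3r to drive neutrophil production, and the chemokine receptor Cxcr2 guides neutrophils out of the marrow and into tissue. Fcer1g and Tyrobp (DAP12) are short membrane adaptors whose ITAM motifs recruit the kinase Syk behind Fc and activating receptors of myeloid and NK cells. Spi1 is also expressed by B cells, and Fcer1g and Tyrobp by NK cells. Resting naive T cells are not known as a source of most of these transcripts.

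The libraries held 14775375 to 21394797 expected counts. Naive T cell RNA dominated every group: Cd4, the coreceptor that defines the lineage, stood at 452 ± 14.0, 517 ± 7.55 and 460 ± 9.40 TPM (mean ± SD, n = 3) in untreated, antibody and MCC950 libraries, the order used from here on. Cd3e, a chain of the T cell receptor complex, stood at 385 ± 14.6, 492 ± 15.2 and 496 ± 20.7 TPM. Ccr7, the homing receptor of naive T cells, stood at 498 ± 9.20, 393 ± 5.66 and 363 ± 3.53 TPM. Without scaling beyond library totals, the median log2 fold change of all tested genes was 0.13 for each inhibitor against untreated (0.125 for MCC950), against 0.003 and 0.011 after TMM scaling, and values below are TMM-scaled, as CPM (counts relative to scaled library size) or as fold changes. That choice moved the split of all called genes against untreated from 2066 higher and 2479 lower to 3929 and 1344 for the antibody, and from 2369 and 2552 to 4009 and 1587 for MCC950.

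Summed over the 10 transcripts, the level was low in untreated cells and higher after either agent, though not every gene followed the sum. Over 3 libraries they held 130 counts in the untreated group, 1602 in the anti-IL-1b group and 1162 in the MCC950 group. Their summed level was 2.95 ± 0.693, 73.2 ± 11.8 and 47.3 ± 4.24 TPM (mean ± SD, n = 3), where TPM relates a transcript's reads to its length. For every 10000 counts of Cd4 in the same library there were 25.9 to 30.5 counts of the 10 genes in untreated libraries, 341 to 398 in anti-IL-1b libraries and 241 to 285 in MCC950 libraries. The ranges of the 3 groups did not overlap on this measure. In RNA of a bulk cell preparation, a change in the number of cells that carry a transcript and a change in its level per cell cannot be told apart.

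**Figure D1:**
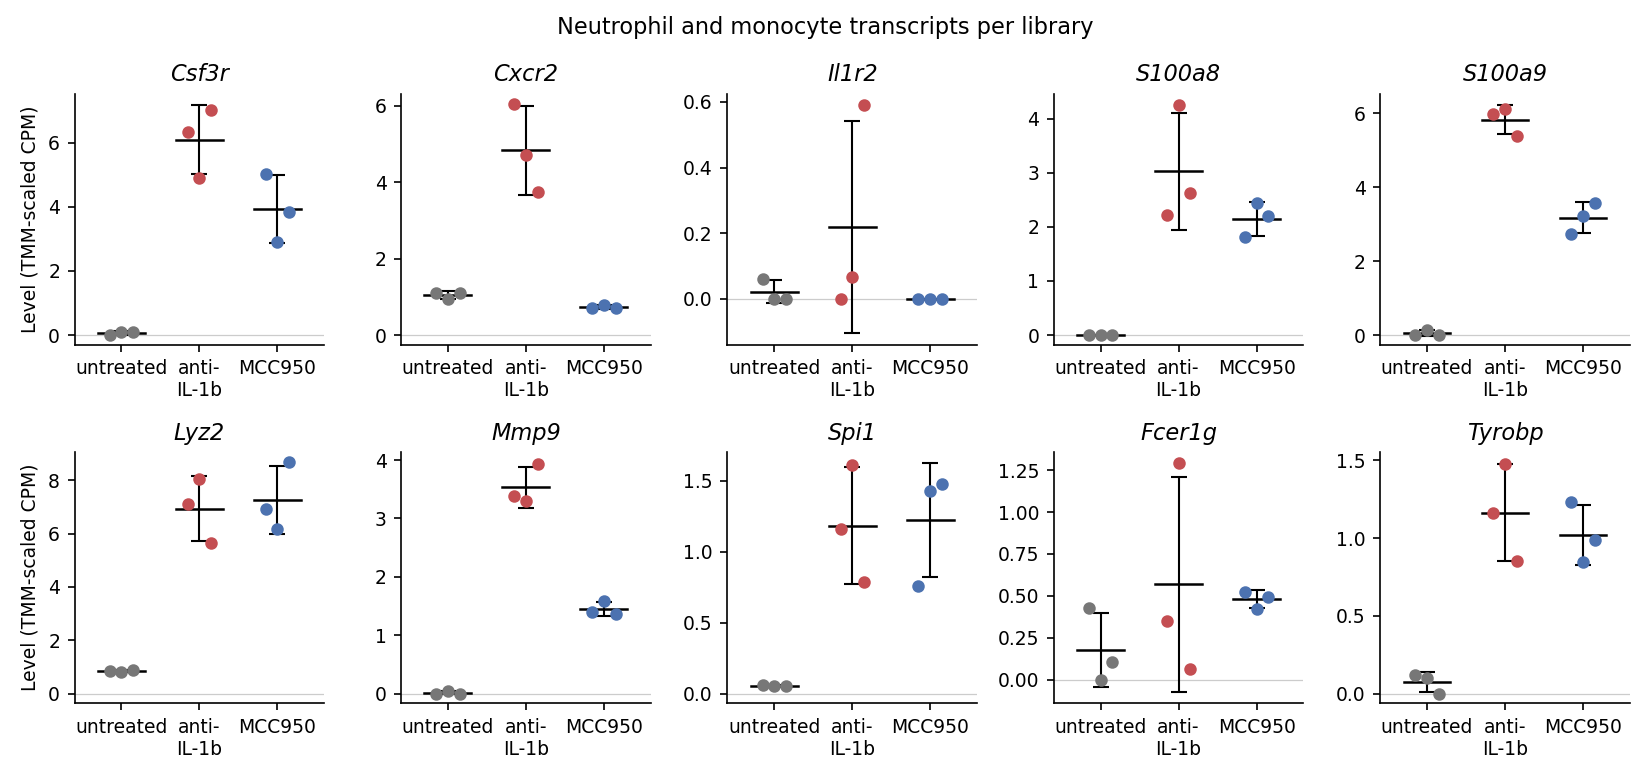
TMM-scaled CPM (vertical axes) of each of the 10 genes in the 9 libraries. Points are libraries, and bars are the mean ± SD of 3. For 8 genes all anti-IL-1b points lie above all untreated points, while Il1r2 and Fcer1g overlap.

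edgeR's quasi-likelihood test could be applied to 8 of the 10 genes, and Il1r2 and Fcer1g were too low for it. Against untreated, all 8 passed with a higher level in the anti-IL-1b group (two-sided, Benjamini-Hochberg adjusted p under 0.05 over 13374 genes), where 15.4% of all tested genes did and 34.0% were called in either direction. All 3 antibody libraries lay above all 3 untreated ones for these 8, as for 20.4% of tested genes. With MCC950, 7 of the 8 passed as higher, where 17.7% of all tested genes did and 36.8% were called in either direction. All 3 MCC950 libraries lay above all 3 untreated ones for these 7, as for 23.5% of tested genes. For 6 of the tested genes (Csf3r, S100a8, S100a9, Mmp9, Spi1 and Tyrobp) every untreated library had fewer than 10 counts, so only the inhibitor groups brought them past the low-count filter. Among all 319 tested genes with fewer than 10 counts in every untreated library, 53.6% were called higher with the antibody and 48.0% with MCC950. The calls of these 6 genes against untreated, and their adjusted p below, are therefore a description and carry no weight of their own. The median log2 fold change of the 8 genes was 5.28 with the antibody and 4.99 with MCC950. It was 5.05 and 4.83 with S100a8 set at its fold over a floor of 3 counts in the untreated group. The 2 comparisons share the untreated libraries and are not independent.

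Among the receptors, Csf3r, which encodes the G-CSF receptor (chr4:126024550-126044440 in mm10, plus strand), had 0, 2 and 2 counts in the untreated libraries 1 to 3. It had 109, 76 and 107 counts in the anti-IL-1b libraries and 86, 55 and 70 in the MCC950 libraries. Every inhibitor library lay above every untreated one. On the log2 scale the difference from untreated was 6.28 ± 0.47 (SE) with the antibody (edgeR adjusted p = 4.35e-14) and 5.64 ± 0.48 with MCC950 (adjusted p = 1.88e-12). From so few untreated counts the ratio itself is loose: 84.9 with the antibody, with an exact 95% interval of 32.8 to 314 that covers counting error only.

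Cxcr2, the receptor for the CXCL chemokines that attract neutrophils (chr1:74153989-74161246, plus strand), was called against untreated with the antibody and not with MCC950. Its counts were 18, 19 and 21 in untreated libraries, 104, 73 and 57 in anti-IL-1b libraries, and 12, 15 and 13 in MCC950 libraries. All anti-IL-1b libraries were above the other 6, and all MCC950 libraries were below the untreated ones. Against untreated the log2 fold change was 2.21 ± 0.36 with the antibody (edgeR adjusted p = 5.07e-06). With MCC950 it was -0.50 ± 0.40 and did not pass the test (adjusted p = 0.356), with a ratio of 0.708 and an exact 95% interval of 0.461 to 1.08. Libraries that all lie below untreated, as these MCC950 libraries did, were seen for 23.8% of all tested genes. Its promoter is shown here because the gene separated the agents most among the 8 tested genes. The sequence runs 5′ to 3′ from 250 bases before the RefSeq start to 50 after it (GRCm38.p6, plus strand, chr1:74153744-74154043), and capitals mark the letters GGAAGT or their reverse complement, a core that PU.1 is known to bind.
Cxcr2: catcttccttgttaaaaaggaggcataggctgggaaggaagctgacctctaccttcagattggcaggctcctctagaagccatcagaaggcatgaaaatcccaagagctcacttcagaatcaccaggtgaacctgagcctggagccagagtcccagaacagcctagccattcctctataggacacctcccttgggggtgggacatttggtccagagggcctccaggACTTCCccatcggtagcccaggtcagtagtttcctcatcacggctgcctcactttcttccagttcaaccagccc

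Il1r2 encodes the decoy receptor for IL-1, which binds the cytokine without signalling (chr1:40074079-40125231, plus strand). It had 1, 0 and 0 counts in untreated libraries, 0, 1 and 9 in anti-IL-1b libraries and 0, 0 and 0 in MCC950 libraries. Of the 10 anti-IL-1b counts, 9 lay in replicate 3, so the groups overlap and no difference was detectable at this depth. The gene overlaps the antisense gene Gm16894 and, on its own strand, the transcript Gm37347, so its few reads could not be assigned with certainty.

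Of the secreted or granule proteins, S100a8, S100a9 and Lyz2 had the highest levels per length of the 10 genes in the inhibitor groups, while Mmp9 was among the lowest. S100a8 and S100a9 encode the calcium-binding subunits of calprotectin, the main cytosolic protein pair of neutrophils. Both genes lie on chromosome 3 (S100a8 at chr3:90668978-90670035, plus strand, and S100a9 at chr3:90692632-90695721, minus strand), with 22596 bases between them. S100a8 had 0 counts in all 3 untreated libraries, 38, 66 and 40 in the anti-IL-1b libraries and 31, 46 and 40 in the MCC950 libraries. Measured against a chosen floor of 3 counts over the untreated group, it was 55.8-fold higher with the antibody and 40-fold higher with MCC950 (edgeR adjusted p = 2.38e-10 and 1.73e-09). These folds are not confidence limits. S100a9 had 0, 3 and 0 counts in untreated libraries, 103, 95 and 82 in anti-IL-1b libraries and 47, 61 and 65 in MCC950 libraries. Its log2 fold changes were 6.59 ± 0.52 and 5.71 ± 0.54 (edgeR adjusted p = 1.44e-13 and 2.06e-11), and the ratios were 109 (exact 95% interval 36.8 to 529) and 59.2 (19.9 to 290). All 3 untreated S100a9 counts lay in replicate 2, and without that library the log2 fold changes were 9.65 and 8.78, against a group at 0. For both genes each inhibitor library exceeded every untreated library.

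The promoter windows of this pair and of Lyz2 are shown because the 3 genes reached the highest levels per length after either agent. Windows are from RefSeq (GRCm38.p6), 5′ to 3′ on the gene's own strand: chr3:90668821-90669120 for S100a8 (plus), chr3:90695672-90695971 for S100a9 (minus) and chr10:117282223-117282522 for Lyz2 (minus). Capitals mark GGAAGT (PU.1 core), TTNNGNAA (a C/EBP pattern) and TATAAA (the core promoter's TATA motif), searched on both strands, and no 2 matches overlap in these windows.
S100a8: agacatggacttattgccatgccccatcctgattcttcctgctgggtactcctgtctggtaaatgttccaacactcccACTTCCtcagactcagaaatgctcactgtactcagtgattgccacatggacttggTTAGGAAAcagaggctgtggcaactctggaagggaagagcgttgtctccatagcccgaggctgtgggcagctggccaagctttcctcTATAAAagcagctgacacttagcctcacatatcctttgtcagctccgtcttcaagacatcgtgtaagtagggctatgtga
S100a9: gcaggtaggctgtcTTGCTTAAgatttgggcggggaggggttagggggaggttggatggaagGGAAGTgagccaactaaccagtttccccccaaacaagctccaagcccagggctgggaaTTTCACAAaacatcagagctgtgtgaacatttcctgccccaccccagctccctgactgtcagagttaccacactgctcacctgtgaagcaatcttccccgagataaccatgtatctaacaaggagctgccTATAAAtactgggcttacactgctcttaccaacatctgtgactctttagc
Lyz2: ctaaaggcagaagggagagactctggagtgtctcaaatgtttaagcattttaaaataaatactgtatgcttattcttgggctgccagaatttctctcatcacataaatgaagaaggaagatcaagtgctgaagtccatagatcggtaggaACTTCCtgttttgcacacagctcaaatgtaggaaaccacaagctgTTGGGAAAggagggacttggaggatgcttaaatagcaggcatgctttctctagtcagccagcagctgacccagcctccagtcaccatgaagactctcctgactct
Of the 10 genes, 7 had a window in the table, and the letters searched were chosen after these sequences had been read. GGAAGT was found in 5 of the 7 (S100a8, S100a9, Cxcr2, Il1r2 and Lyz2) and in 23.8% of 32851 promoters of the same length. TTNNGNAA was found in 3 of the 7 (S100a8, S100a9 and Lyz2) and in 40.7% of promoters. TATAAA was found in 2 of the 7, S100a8 at position -30 and S100a9 at position 1 counted from the RefSeq start, and in 13.6% of promoters. Promoters of Mmp9, Spi1 and Tyrobp were not analysed here. A match describes letters, not binding.

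Lyz2, lysozyme M, an antibacterial enzyme of granules and macrophages (chr10:117277331-117282321, minus strand), was the member with the most counts in untreated cells after Cxcr2. Counts were 14, 16 and 17 in untreated libraries, 122, 125 and 86 in anti-IL-1b libraries and 119, 117 and 158 in MCC950 libraries. The inhibitor groups overlap each other and both lie above the untreated group. Log2 fold changes against untreated were 3.03 ± 0.26 and 3.09 ± 0.26 (edgeR adjusted p = 2.51e-12 and 1.11e-12), or ratios of 8.24 (exact 95% interval 6.06 to 11.4) and 8.61 (6.35 to 11.9). Its near-identical neighbour Lyz1 had 0, 4 and 0 counts over the groups, so reads shared between the copies could move few counts.

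Mmp9, the gelatinase of neutrophil granules that cleaves matrix proteins (chr2:164940780-164955850, plus strand), had 0, 1 and 0 counts in untreated libraries. It had 58, 51 and 60 counts in anti-IL-1b libraries and 24, 30 and 25 in MCC950 libraries. The 3 groups did not overlap. Log2 fold changes against untreated were 7.15 ± 0.72 and 5.87 ± 0.76 (edgeR adjusted p = 1.24e-10 and 4.99e-08), and with 1 untreated count the exact 95% interval of the antibody's ratio runs from 34.8 to 7810. That count lay in replicate 2, without which the log2 fold changes were 8.93 and 7.65, against a group at 0.

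Spi1, which encodes PU.1 (chr2:91082390-91115756, plus strand), had 1 count in each untreated library, 20, 25 and 12 in anti-IL-1b libraries and 13, 27 and 27 in MCC950 libraries. Both inhibitor groups lay above untreated and overlapped each other. Its log2 fold changes were 4.29 ± 0.79 and 4.34 ± 0.78 (edgeR adjusted p = 3.23e-05 and 2.22e-05). On log2(TPM + 1) the MCC950 change was 0.82 and did not pass (limma-trend adjusted p = 0.0613).

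Tyrobp, the adaptor of TREM and NK cell receptors (chr7:30413760-30417585, plus strand), had 2, 2 and 0 counts in untreated libraries, 20, 23 and 13 in anti-IL-1b libraries and 21, 16 and 18 in MCC950 libraries. Log2 fold changes were 3.89 ± 0.79 and 3.69 ± 0.79 (edgeR adjusted p = 0.00013 and 0.000244), with every inhibitor library above every untreated one. Fcer1g, the Fc receptor gamma chain (chr1:171229572-171234365, minus strand), had 7, 0 and 2 counts in untreated libraries, 6, 20 and 1 in anti-IL-1b libraries and 9, 8 and 9 in MCC950 libraries. Untreated and anti-IL-1b libraries overlapped, and 20 of the 27 antibody counts lay in replicate 2. Pooled Fcer1g ratios to untreated were 3.49 (exact 95% interval 1.59 to 8.43) and 2.97 (1.35 to 7.19), intervals that leave out the spread between libraries. With a filter of 1 count in all, edgeR gave log2 fold changes of 1.70 ± 0.97 and 1.46 ± 0.97 for Fcer1g against untreated (adjusted p = 0.251 and 0.335). The MCC950 libraries lay above the untreated ones in counts and TPM of Fcer1g but not in CPM, where the lowest MCC950 value was 0.423 and the highest untreated one 0.427.

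**Figure D2:**
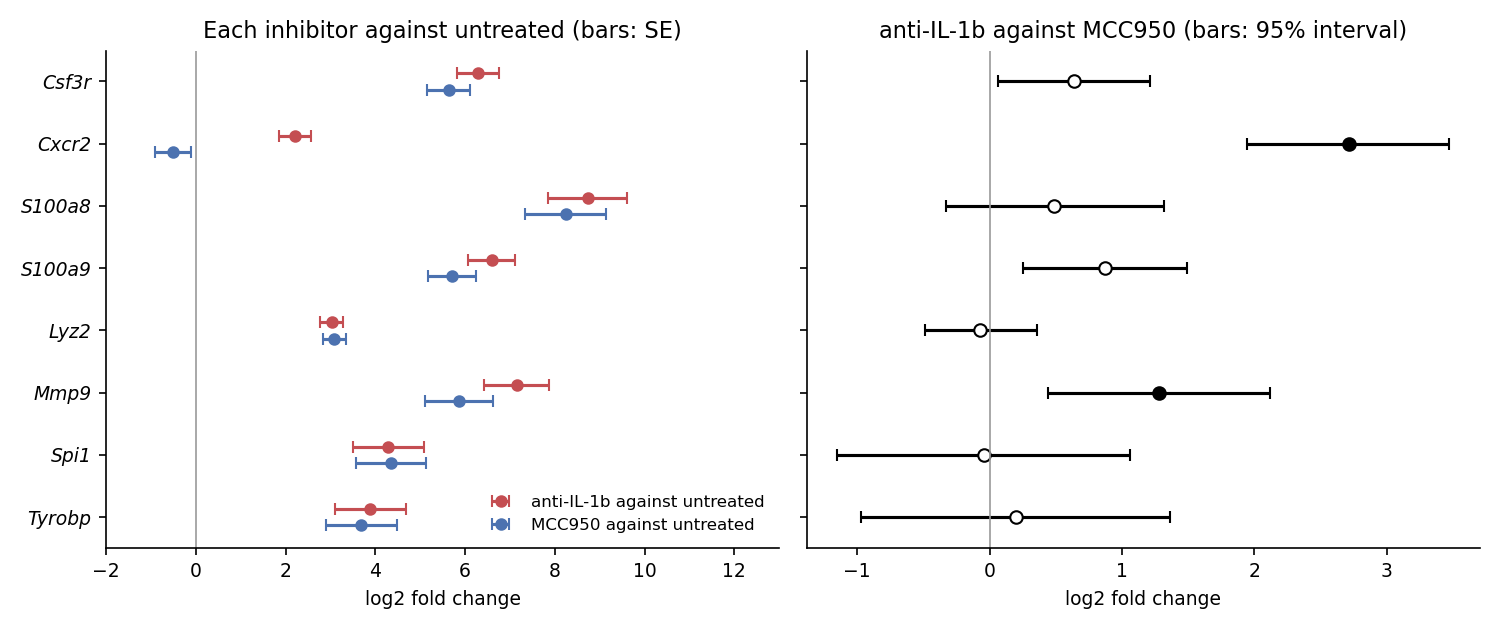
Log2 fold changes of the 8 tested genes (horizontal axes). The left panel gives each agent against untreated with its SE, and the right panel gives anti-IL-1b against MCC950 with its 95% interval, where filled points passed the test. Cxcr2 stands apart on both panels: 2.21 and -0.50 on the left and 2.71 on the right.

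Compared with each other, the agents gave different levels of Cxcr2 and Mmp9. Of the 8 tested genes these 2 were called higher with the antibody than with MCC950, where 6.13% of all tested genes were called higher and 7.11% lower. The log2 difference was 2.71 ± 0.38 for Cxcr2 (edgeR adjusted p = 1.31e-06), a ratio of 6.63 with an exact 95% interval of 4.72 to 9.51. It was 1.28 ± 0.42 for Mmp9 (adjusted p = 0.0339), a ratio of 2.42 (1.84 to 3.21). All 3 anti-IL-1b libraries lay above all 3 MCC950 libraries for both, as for 14.0% of tested genes. The Mmp9 call rests on every one of the 6 inhibitor libraries, since leaving out any single one gave adjusted p from 0.0741 to 0.128, with log2 differences of 1.19 to 1.34.

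S100a9 lay at the threshold, with 0.87 ± 0.31 on the log2 scale (edgeR adjusted p = 0.0518) and all 3 anti-IL-1b libraries above all 3 MCC950 libraries. Its edgeR adjusted p was 0.0296, 0.0206 and 0.0283 without untreated replicate 1, 2 or 3, 0.047 to 0.0493 with other scalings, and up to 0.187 without an inhibitor library. Over all alternatives it ran from 0.00595 to 0.517. Differences for the remaining genes did not pass: Csf3r was at 0.64 (95% interval 0.06 to 1.21, adjusted p = 0.146) and S100a8 at 0.49 (-0.33 to 1.32, adjusted p = 0.5). Lyz2 stood at -0.07 (-0.49 to 0.36), Spi1 at -0.04 (-1.15 to 1.06) and Tyrobp at 0.20 (-0.97 to 1.36), with edgeR adjusted p of 0.9, 0.977 and 0.89. For Spi1 and Tyrobp these intervals are wide on both sides of 0. The pooled Fcer1g ratio of antibody to MCC950 was 1.18 (exact 95% interval 0.661 to 2.1).

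Per transcript length, the order of the 10 genes changed with treatment. In untreated libraries Lyz2 led with 1.04 TPM and did not overlap Cxcr2 at 0.593, while Fcer1g, at 0.533, reached 1.29 TPM in replicate 1. In anti-IL-1b libraries S100a9 led with 29.6 TPM, then S100a8 with 16.9 and Lyz2 with 9.47, and no 2 neighbours among these overlapped. Tyrobp (5.04), Csf3r (3.22), Cxcr2 (2.94), Spi1 (1.97), Fcer1g (1.86) and Mmp9 (1.79) followed, each overlapping the next, and Il1r2 came last at 0.463. In MCC950 libraries S100a9 (16.1), S100a8 (11.9) and Lyz2 (9.55) again led but overlapped in sequence, and Cxcr2, at 0.4 TPM, stood above Il1r2 alone. S100a8 and S100a9 together made up 63.4% of the summed TPM of the 10 genes in anti-IL-1b libraries (62.7% to 65.1%) and 59.1% in MCC950 libraries (54.4% to 64%). In untreated libraries their share was 0%, 23.6% and 0%, the middle value from 3 counts of S100a9. Without this pair the sums were 2.73 ± 0.827, 26.8 ± 5.06 and 19.3 ± 2.22 TPM.

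**Figure D3:**
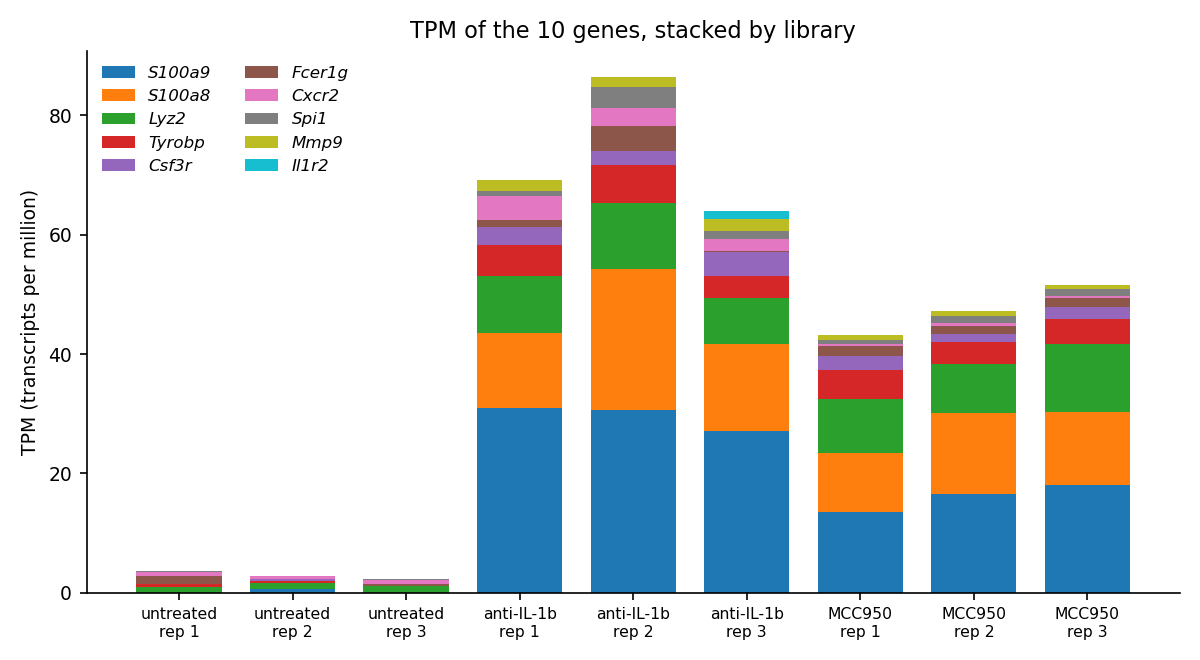
Stacked TPM of the 10 genes (vertical axis) in each of the 9 libraries. S100a9 and S100a8 form the larger share of each inhibitor bar, and the summed bars run from 2.30 to 3.68 TPM in untreated, 64.0 to 86.5 in anti-IL-1b and 43.2 to 51.6 in MCC950 libraries.

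The members did not all peak in the same library. Anti-IL-1b replicate 2 was highest of its group for 6 of the 10 genes (S100a8, S100a9, Lyz2, Spi1, Fcer1g and Tyrobp), replicate 3 for Csf3r, Il1r2 and Mmp9, and replicate 1 for Cxcr2. In the MCC950 group each replicate was highest for 3 genes.

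Of 24 further granule and surface genes, 19 had 0 counts in every untreated library, against 3 with the antibody and 5 with MCC950. In a single untreated library 16751 to 16898 of all genes had at least 1 count. In anti-IL-1b libraries 17313 to 17528 did, and in MCC950 libraries 17324 to 17431. The summed level of the 24 was 1.16 to 3.27 CPM in untreated, 20.1 to 20.6 in anti-IL-1b and 8.94 to 13.5 in MCC950 libraries. Only 8 could be tested, of which 7 were called higher with the antibody and 5 with MCC950. For 6 of these 8 every untreated library had fewer than 10 counts, and they make up 6 of the 7 calls and all 5, so beside the 53.6% and 48.0% of such genes called higher these counts describe and do not support. Ltf, the lactoferrin of secondary granules, had 0, 223 and 156 counts over the 3 groups in the same order (edgeR adjusted p = 2.07e-13 and 5.82e-12 against untreated). Ngp, another granule protein, had 2, 207 and 119 counts, and Retnlg, a resistin-like protein of neutrophils, had 0, 23 and 43. The azurophil granule genes were near 0: Elane had no count in any library and Mpo had 0, 3 and 2 counts over the groups. The surface marker Ly6g had 0, 5 and 2. The list also holds the chemokine gene Cxcl2, 1 of the 7 antibody calls, which is counted again in the next list.

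Of 15 genes of the G-CSF, CXCR2 and IL-1 systems, 6 could be tested. Against untreated, 3 (Il1b, Cxcl2 and Csf2rb) were called higher with the antibody and 2 (Il1b and Csf2rb) with MCC950, where 15.4% and 17.7% of all tested genes were. Each of the 3 had fewer than 10 counts in every untreated library, where 53.6% and 48.0% of tested genes were called higher. Of the 6, 2 (Il1b and Cxcl2) were called higher with the antibody than with MCC950, where 6.13% of all tested genes were. Il1b, the cytokine that the antibody binds, had 0 counts in untreated, 298 in anti-IL-1b and 130 in MCC950 libraries, or 0, 6.18 ± 1.46 and 2.38 ± 0.564 CPM. It was higher with the antibody than with MCC950 by 1.37 ± 0.31 on the log2 scale (edgeR adjusted p = 0.00205). Cxcl2, a ligand of CXCR2, had 48 counts in the anti-IL-1b group and 0 in both other groups (edgeR adjusted p = 0.000341 against MCC950). Only the antibody group brought Cxcl2 past the low-count filter, so its calls are a description and carry no weight of their own. Csf2rb, the shared beta chain of the GM-CSF receptor, differed by 3.52 ± 0.82 and 2.62 ± 0.84 from untreated (adjusted p = 0.000687 and 0.0129).

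Around the adaptors, 12 of 20 receptor partners and kinases could be tested. Of these, 7 were called higher with the antibody and 10 with MCC950, of which 4 and 5 were low in untreated cells. Of all tested genes 15.4% and 17.7% were called higher, and of those low in untreated cells 53.6% and 48.0%. Syk, the kinase that ITAM adaptors recruit in myeloid and B cells, had log2 fold changes of 3.46 ± 0.31 and 3.32 ± 0.30 (edgeR adjusted p = 4.07e-12 and 1.14e-11). Lyn, a Src-family kinase of the same cells, was higher by 3.50 ± 0.55 and 3.86 ± 0.54 (adjusted p = 2.37e-06 and 2.75e-07), and Card9, a signalling adaptor downstream of Syk, by 1.30 ± 0.25 and 0.86 ± 0.26 (adjusted p = 7.42e-05 and 0.00686). Zap70, the T cell counterpart of Syk, differed by 0.08 with the antibody (adjusted p = 0.103) and rose by 0.21 with MCC950 (adjusted p = 3.02e-05). Hcst differed by 0.07 with the antibody (adjusted p = 0.655) and rose by 0.26 with MCC950 (adjusted p = 0.0298). These small rises are among the 10 MCC950 calls, in genes already at 217 (Zap70) and 25.9 CPM (Hcst) in untreated libraries. With scaling by library totals the Zap70 difference with the antibody became 0.21 and passed.

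Among myeloid transcription factors more were called lower than higher. Of 12 listed, 8 could be tested, with 1 called higher and 3 lower for the antibody, and 1 higher and 4 lower for MCC950. Of all tested genes, 18.5% and 19.1% were called lower and 15.4% and 17.7% higher. Cebpb, a C/EBP factor that T cells also express, fell by 2.65 and 2.41 on the log2 scale (edgeR adjusted p = 9.14e-19 and 6.75e-18). Klf4, a factor of monocytes and of quiescent T cells, fell by 4.03 and 5.43 (adjusted p = 3.03e-26 and 8.22e-29). Gfi1 fell by 1.04 and 1.24 (adjusted p = 4.4e-09 and 5.49e-11), and Runx1 fell by 0.25 with MCC950 (adjusted p = 5.49e-05). Irf8, a factor of monocytes and B cells and the 1 called higher, rose by 0.68 and 0.72 (adjusted p = 0.0149 and 0.00804).

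Of 20 monocyte and macrophage genes, 9 could be tested, and 4 were called higher and 1 lower with the antibody, and 6 higher with MCC950. All tested genes were called higher in 15.4% and 17.7% of cases, and lower in 18.5% with the antibody. Of the 9, 3 had fewer than 10 counts in every untreated library, and they gave 2 of the higher calls with each agent. Such genes were called higher in 53.6% and 48.0% of cases. Csf1r, the receptor for M-CSF, rose by 2.61 ± 0.51 and 2.0 ± 0.51 (edgeR adjusted p = 7.96e-05 and 0.00193). Ly6c2, which also marks some T cells, rose by 1.23 and 1.03 (adjusted p = 0.00159 and 0.00727), and the lysosomal protein gene Cd68 fell by 1.29 with the antibody (adjusted p = 0.0157). Summed CPM of the list ran from 20.7 to 29.6 in untreated, 31.8 to 34.2 in anti-IL-1b and 35.8 to 39.0 in MCC950 libraries. Ms4a6c alone held a mean of 14.2, 15.2 and 18.7 CPM of these sums. It differed from untreated by 0.10 and 0.40 on the log2 scale (edgeR adjusted p = 0.624 and 0.0179). Of 10 dendritic cell genes, 2 could be tested, and the integrin gene Itgax was called higher with both agents, by 3.86 ± 0.82 and 3.63 ± 0.83 (edgeR adjusted p = 0.00026 and 0.000531). Itgax also had fewer than 10 counts in every untreated library.

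Among markers of cells outside the myeloid lineage, B cell genes, which include the class II molecules that macrophages also carry, were called higher for 14 of 15 with each agent. Of all tested genes, 15.4% and 17.7% were called higher, and 3 of the 15 had fewer than 10 counts in every untreated library. The B cell list summed to 20.7 to 27.0 CPM in untreated, 95 to 102 in anti-IL-1b and 107 to 129 in MCC950 libraries. None of these 15 genes was at 0 in every library of any group, and H2-Aa, a class II chain, rose by 2.44 ± 0.20 and 2.74 ± 0.19 (edgeR adjusted p = 2.84e-13 and 6.46e-15). Red cell genes, 7 of 8 of them found in the files, had 0.122 to 0.445 CPM in untreated, 4.38 to 5 in anti-IL-1b and 6.13 to 10.3 in MCC950 libraries. The 4 that could be tested were called higher with both agents, but all 4 had fewer than 10 counts in every untreated library, where 53.6% and 48.0% of tested genes were called. The beta-globin gene Hbb-bs had 0, 96 and 186 counts, though near-identical globin copies share reads. NK cell genes summed to 54.4 to 62.5 CPM in untreated, 53.4 to 64.3 in anti-IL-1b and 59.7 to 63.0 in MCC950 libraries, with 4 of 12 at 0 in every untreated library. Prf1, the perforin gene, held most of this sum and fell by 0.31 with the antibody (edgeR adjusted p = 0.00118). Without Prf1 the list summed to 11.1 to 14.7, 19.3 to 23.6 and 16.4 to 21.3 CPM, and the groups' ranges against untreated did not overlap. Of 7 tested NK cell genes, 2 were called higher and 1 lower with the antibody (Klrd1, Eomes and Prf1), and Nkg7 was called higher with MCC950. Of all tested genes, 15.4% were called higher and 18.5% lower with the antibody, and 17.7% higher with MCC950. Ncr1, which defines NK cells, had 0, 18 and 1 counts and was not tested. Eosinophil, basophil and mast cell genes stayed at or below 1.37 CPM summed in each library, and platelet genes ran from 4.57 to 7.97 CPM over all 9. The part of these other cell markers in the levels of the 10 genes was not tested.

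**Figure D4:**
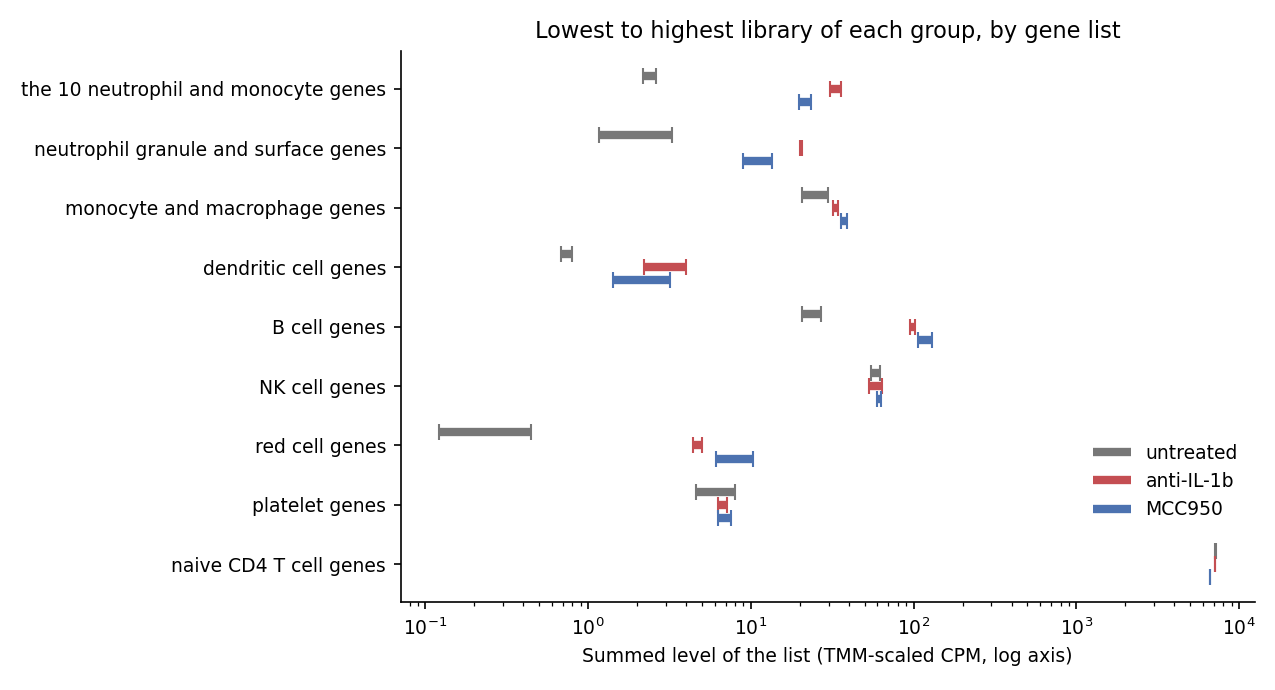
Summed TMM-scaled CPM of each marker list (horizontal log axis), drawn from the lowest to the highest of the 3 libraries in each group. The 10 genes, the other neutrophil genes, and the monocyte, dendritic cell, B cell and red cell genes of both inhibitor groups lie above the untreated range. NK cell ranges, which Prf1 dominates, overlap.

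The genes whose profile over the 9 libraries was most like that of the 8 tested genes were sought among 11819 genes, by the correlation of log2 CPM with the mean of the 8. The 5 highest were Ltf (r = 0.996), the noncoding transcript G530011O06Rik (0.995), Ddx17, an RNA helicase gene (0.992), Ogt, which encodes the O-GlcNAc transferase (0.99), and Il1b (0.989). These points share libraries and fall into 3 groups, so r describes the group pattern and carries no test. Levels of the 5 differed widely: G530011O06Rik stood at 0.630 ± 0.0489, 147 ± 13.1 and 75.6 ± 2.66 CPM over the 3 groups. Ogt stood at 366 ± 4.86, 727 ± 28.4 and 682 ± 12.3 CPM, and Ddx17 at 683 ± 4.25, 842 ± 12.2 and 796 ± 9.32.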

How the data were processed

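Poly(A) RNA libraries were made with a directional kit, per the labels' protocols. The authors aligned and quantified reads with STAR and RSEM on mm10 (versions not listed), per the submitters' processing notes, and nothing used here states whether reads were counted by strand. The deposited expected counts are estimated reads per gene, not normalized, per the file headers, and the deposited TPM values are scaled to transcript length and library. Of the expected counts above 0, 19.35% were not whole, and all were rounded. Symbols came from GENCODE M21 (99.5% of IDs), with unmatched IDs holding at most 0.0169% of a library's counts, and promoter sequences from RefSeq (GRCm38.p6).

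Counts were tested with edgeR 4.0.16 in R 4.3.3 (robust quasi-likelihood fit of 3 group means over 9 libraries, TMM, filterByExpr), two-sided, with Benjamini-Hochberg adjustment over 13374 genes and a threshold of 0.05. CPM are TMM-scaled. Folds against a group at 0 used a floor of 3 counts over the group, and exact 95% intervals of ratios cover counting error only. Fits were tested on simulated data. Members and gene lists were chosen with earlier results of these data known. Named genes were the 10 members, up to 3 called genes of highest mean TPM from each list, of which not all are printed, fixed checks (Cd4, Cd3e, Ccr7, Ncr1, Csf1r, Ly6g, Mpo, Elane, and 1 gene that is not reported here) and the 5 most similar profiles. Irf8, Gfi1, Syk, Lyn and Eomes were named outside the rule on mean TPM. Lyz1, Gm16894 and Gm37347 were named because of shared or overlapping sequence. Alternatives were RLE, upper-quartile and total scaling, other filters, DESeq2 1.42.0, limma-trend (limma 3.58.1) on log2(TPM + 1) or log2(TPM + 0.1), a replicate block, a fit without the robust option, fits of 6 libraries and leaving out each library.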

Additional observations from a re-analysis of the deposited data

Results flagged for a closer look

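The effect of the agents differed from each other for 2 of the 8 tested genes, by edgeR's test of anti-IL-1b against MCC950. Of all tested genes, 13.2% were called in either direction. All 3 anti-IL-1b libraries lay above all 3 MCC950 libraries for 14.0% of tested genes. Cxcr2 differed by 2.71 ± 0.38 on the log2 scale (adjusted p = 1.31e-06), higher in 3 of 3 anti-IL-1b libraries than in any MCC950 library. Mmp9 differed by 1.28 ± 0.42 (adjusted p = 0.0339), also higher in 3 of 3, and its call was lost when any 1 of the 6 libraries was left out (adjusted p up to 0.128).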

How the results depend on the processing

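Against untreated, the 8 and 7 calls held under the alternatives run, except that limma-trend on log2(TPM + 1) lost Spi1 with MCC950 (0.82, adjusted p = 0.0613, or 0.141 without a filter). The direction of each tested gene against untreated held throughout. Between the agents, the 2 calls became 3 with RLE, upper-quartile and total scaling, where S100a9 passed (edgeR adjusted p = 0.0493, 0.0472 and 0.047). They became 1 with limma-trend on log2(TPM + 0.1) and on log2(TPM + 1) without a filter, where Mmp9 was lost (adjusted p = 0.103 and 0.0721), and ran from 1 to 3 with a library left out. DESeq2 without independent filtering, added after seeing the data because filtering left members without an adjusted p, called 3. Signs turned between the agents only for uncalled genes. Spi1 became 0.51, 0.81 and 0.51 under the 3 limma-trend fits and ranged from -0.32 to 0.18 (0.08 and 0.12 among these) with a library left out, Tyrobp from -0.01 to 0.37, and Lyz2 from -0.19 to 0.08 (0.06 among these), and the cause was not tested. The labels number replicates 1 to 3 in each group, and nothing says that a number is shared. Same-numbered libraries deviated together with r from 0.028 to 0.199, against -0.172 to 0.083 for libraries of different number. Not each library correlated best with its own number. With the replicate block the members called stayed at 8, 7 and 2, and all genes called were 4483, 4855 and 1704, against 4545, 4921 and 1771. Under limma-trend, all genes called for anti-IL-1b against untreated were 3510 on log2(TPM + 1), 3522 on log2(TPM + 0.1) and 2783 on log2(TPM + 1) without a filter. Among these fits they fell to 3263 and 2584 for MCC950 against untreated, and to 572, 565 and 374 between the agents. Summed TPM was 26.8 and 19.3 without S100a8 and S100a9. Il1r2 and Fcer1g had at most 27 counts in any group, and their libraries also varied within groups.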
